A study of Mus musculus with 2 samples.

Results

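The genes described here encode deubiquitinases and ubiquitin-conjugating enzymes, measured in mouse macrophages with and without lipopolysaccharide (LPS). They were chosen by name: every gene with a probe set of its own whose symbol is Usp followed by a digit or begins with Otud, Otub, Uchl or Ube2. Of 96 such genes, 5 that were assigned elsewhere (Usp18, Ube2n, Ube2v1, Ube2l6 and Ube2c) were left out, so that 91 genes with 228 probe sets remained among the 18193 named genes of the array. They comprise 50 USP genes, 9 OTU genes (Otub and Otud), 3 UCH genes (Uchl) and 29 Ube2 genes. Some of them carry the name without the activity. Among these, Usp6nl encodes a GTPase-activating protein for Rab proteins, and Ube2d-ps is a pseudogene. Usp46os2 is an opposite-strand transcript, and Ube2cbp encodes a binding partner of an E2.

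Ubiquitin is attached to proteins by a relay in which an activating enzyme (E1) passes it to a conjugating enzyme (E2), and the E2, with a ligase (E3), passes it to the target. Deubiquitinases cut it off again, and the USP, OTU and UCH proteins are 3 families of such proteases. In macrophages, ubiquitin chains assembled after Toll-like receptor 4 binds LPS act as scaffolds for the kinases that activate NF-kB, and deubiquitinases can shorten or end that signal. A similar relay runs with ubiquitin-like proteins such as NEDD8 and FAT10.

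The series holds 2 arrays of C57BL6 bone marrow-derived macrophages grown in medium with M-CSF, the growth factor that macrophages need: 1 of cells given LPS and 1 of control cells without it. RNA was hybridized to Affymetrix Mouse Genome 430 2.0 arrays, and the deposited values are MAS5 signals, which are linear intensities. The labels give no dose and no time for LPS and do not say how many mice were used. With 1 array per condition the differences below have no replicate check and no test, they describe these 2 arrays, and the number of arrays limits the precision of all values.

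A gene counts here as measured when its brightest probe set reached the floor of 1 array or of both; the floor is the median signal of that array. The floor was 26.7 on the LPS array and 35.1 on the control array. Ratios are LPS over control on the log2 scale unless a fold is given, and dimmer signals were raised to the floor, which makes the fold a bound, written as "at least". The LPS array read lower as a whole, with a median log2 ratio of -0.42 over the 11722 measured genes, and counts after centring on that median stand beside those as deposited. All 8 macrophage markers were measured, with signals from 654 to 10273 on the LPS array and from 1094 to 9710 on the control array. All 5 T cell markers with a probe set of their own were under the floor on both arrays, and their signals summed to 60.1 on the LPS array and 57.4 on the control array. Of 4 B cell markers, Cd79a, Ms4a1 and Pax5 were under both floors and Cd79b was measured, 3.11-fold lower at 35.3 on the LPS array and 110 on the control array; the list summed to 70.8 on the LPS array and 168 on the control array. Of 5 fibroblast markers, Col1a1, Col3a1 and Dcn were under both floors, Col1a2 read 41.9 on the LPS array and 36.8 on the control array, and Pdgfrb read 170 on the LPS array and 3.97, under the floor, on the control array. That list summed to 247 on the LPS array and 81.8 on the control array. Of 5 neutrophil markers, Camp, Elane and Mpo were under both floors, Ltf reached the floor on the LPS array alone, and Mmp8 read 183 on the LPS array and 435 on the control array, with sums of 272 on the LPS array and 481 on the control array. The part of these cell types in the members' ratios was not tested.

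Of the 91 genes, 78 were measured, and 74 of these reached the floor on both arrays. Usp13 reached it on the LPS array alone, and Usp2, Ube2t and Otub2 on the control array alone. The 13 that were not measured were Uchl4, Ube2cbp, Ube2d2b, Ube2ql1, Ube2u, Usp17la, Usp26, Usp29, Usp43, Usp44, Usp46os2, Usp50 and Usp9y. For Usp13 the signal was 26.9 on the LPS array and 16.3, under the floor, on the control array, and because the control floor is the higher one its floored log2 ratio is -0.38 although the LPS signal was the higher; that ratio turns positive after centring and with quantile normalization.

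Most measured members were within 2-fold as deposited. The share past 2-fold was near that of all measured genes on the higher side and smaller on the lower side. Of the 78 measured genes, 7 read at least 2-fold higher with LPS, or 8.97%, against 8.22% of all measured genes. Past 2-fold on the lower side were 11, or 14.1%, against 26.2% of all measured genes, and 60 were within 2-fold. After centring, 17 were higher, or 21.8%, against 13.1% of all measured genes, and 5 were lower, or 6.41%, against 15.3%. Those 5 were Ube2t, Usp2, Usp20, Usp49 and Usp27x; the other 6 genes past 2-fold on the lower side as deposited (Usp28, Ube2e3, Usp48, Otud3, Usp37 and Usp33) were within 2-fold after centring. Which genes were lower depended on the scaling between arrays, the 4 tried being median centring, quantile normalization, loess and scaling to poly-A controls. Ube2t, Usp2 and Usp20 were past 2-fold lower under all 4, Ube2e3 under 3 (all but centring), Usp49 and Usp27x under 2 (centring and poly-A), Usp48 under 2 (quantile and poly-A), Usp28 under 1 (poly-A), and Otud3, Usp37 and Usp33 under 0. The 7 higher genes were past 2-fold under all 4. For them centring and poly-A scaling could give no other outcome, because both raise every ratio by a constant. Only quantile normalization and loess could have changed those calls, so the 2 sides cannot be compared in this respect. The share of higher genes among those past 2-fold was thereby 38.9% as deposited and 77.3% after centring, and for all genes 23.9% and 46.2%. The median log2 ratio of the members was -0.10, which lies 0.33 above the median of all measured genes and turns positive under each of the 4 scalings between arrays that were tried.

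**Figure D1:**
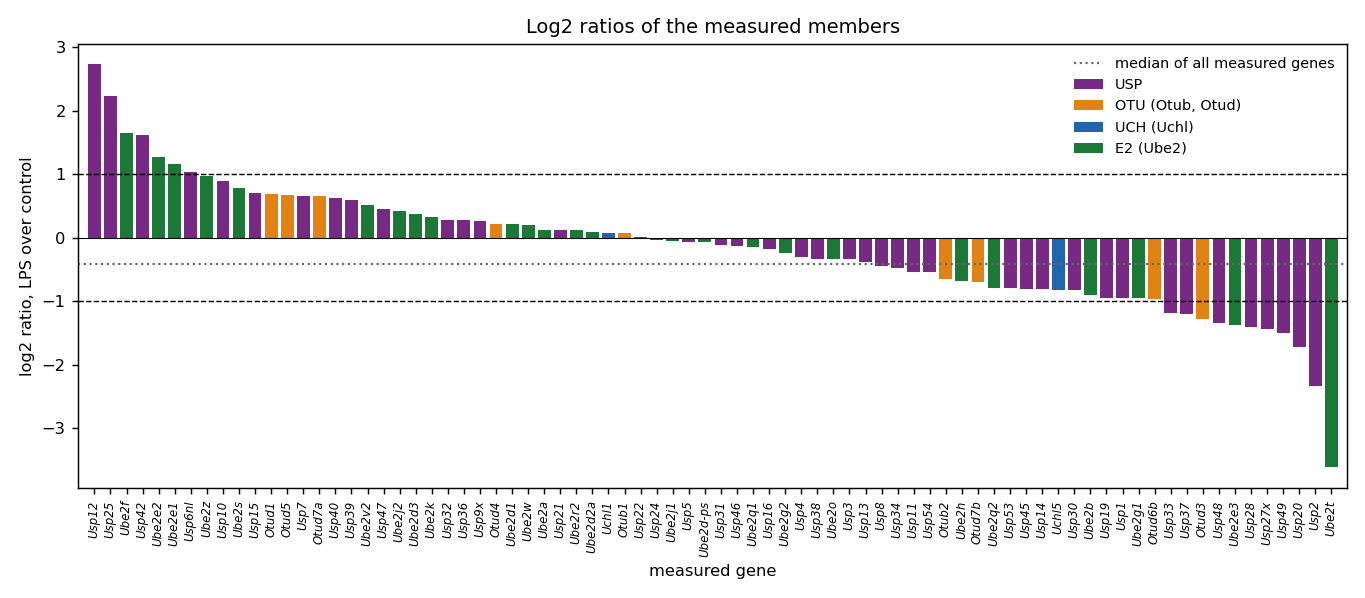
Log2 ratios (LPS over control, vertical axis) of the 78 measured genes, ordered by ratio and coloured by family, with dashed lines at 2-fold and a dotted line at the median of all measured genes (-0.42). Usp12 (2.73) and Usp25 (2.23) lead the higher side, and Usp2 (-2.34) and Ube2t (-3.62) end the lower side.

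The members were brighter than the typical gene, with a median mean log2 signal of 8.69, against 7.67 for all measured genes, and the shift between the arrays varied with brightness. Among genes with a mean log2 signal of 7 to 9, the 27 members had a median log2 ratio of -0.06, against -0.61 for all genes there. Between 9 and 11 the 26 members had a median of 0.21, against -0.23. Dimmer members did not stand higher: the 19 with a mean log2 signal of 5 to 7 had a median of -0.65, against -0.61. Above 11 there were only 5 members, with a median of 0.37, against -0.08.

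**Figure D2:**
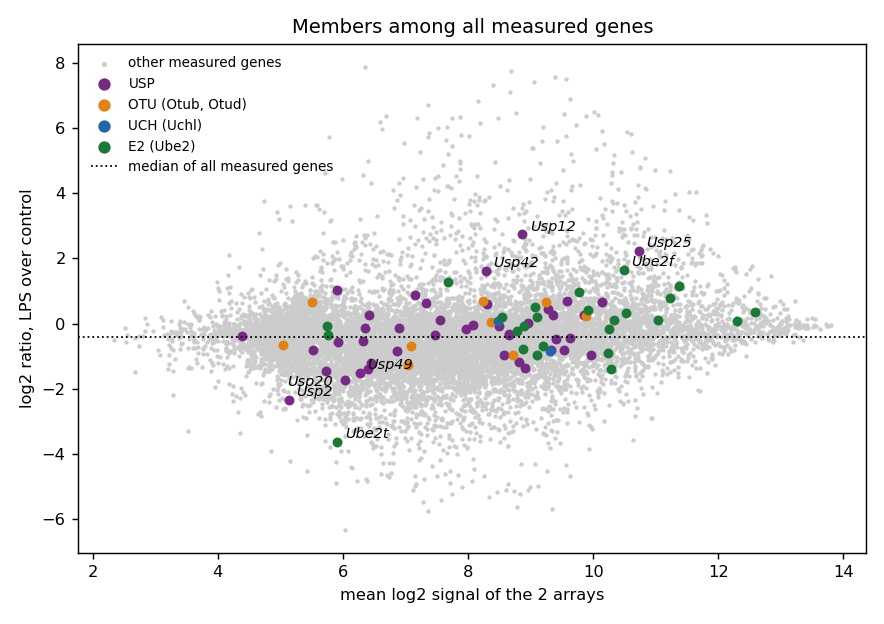
Log2 ratio (LPS over control) against the mean log2 signal of the 2 arrays for all 11722 measured genes, with the 78 members coloured by family and those at least 1.5 from zero named. The dotted line is the median of all measured genes at -0.42, and the named members lie on both sides of it.

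Deubiquitinases and E2 genes both had members past 2-fold on each side. Of 53 measured USP, OTU and UCH genes, 4 passed 2-fold upwards and 9 downwards, against 8.22% and 26.2% of all measured genes. The 4 include Usp6nl, which encodes no deubiquitinase. The median log2 ratio of the 53 genes, -0.31, becomes 0.12 after centring, when 12 were higher and 4 lower, against 13.1% and 15.3%. Of 25 measured Ube2 genes, the pseudogene Ube2d-ps included, 3 were higher and 2 lower, against 8.22% and 26.2%. Their median was 0.12 as deposited and 0.55 after centring, when 5 were higher and 1 lower, against 13.1% and 15.3%. Of the 9 OTU genes, set against the same shares, 0 were at least 2-fold higher and 1 was lower (median 0.07). After centring 3 were higher (Otud1, Otud5 and Otud7a) and 0 lower (median 0.49), and loess gave the same higher genes. With quantile normalization only Otud1 and Otud7a were higher, and with poly-A scaling no OTU gene was. Both measured UCH genes were within 2-fold as deposited and after centring.

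The deubiquitinase genes Usp12 and Usp25 had the largest ratios of the members on the higher side. Usp12 encodes an enzyme that is active in a complex with the WD-repeat proteins of Wdr48 and Wdr20. Its brightest probe set read 1207 on the LPS array and 181 on the control array, which is 6.65-fold higher. The 2 other Usp12 probe sets gave 3.80-fold and 1.88-fold higher, so that all 3 pointed the same way while differing in size. Usp25, whose product has been described as acting on TRAF adaptor proteins in Toll-like receptor and interleukin-17 signalling, read 3697 on the LPS array and 789 on the control array, 4.69-fold higher. Its dimmer probe set read 147 on the LPS array and 42.6 on the control array, 3.46-fold higher.

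**Figure D3:**
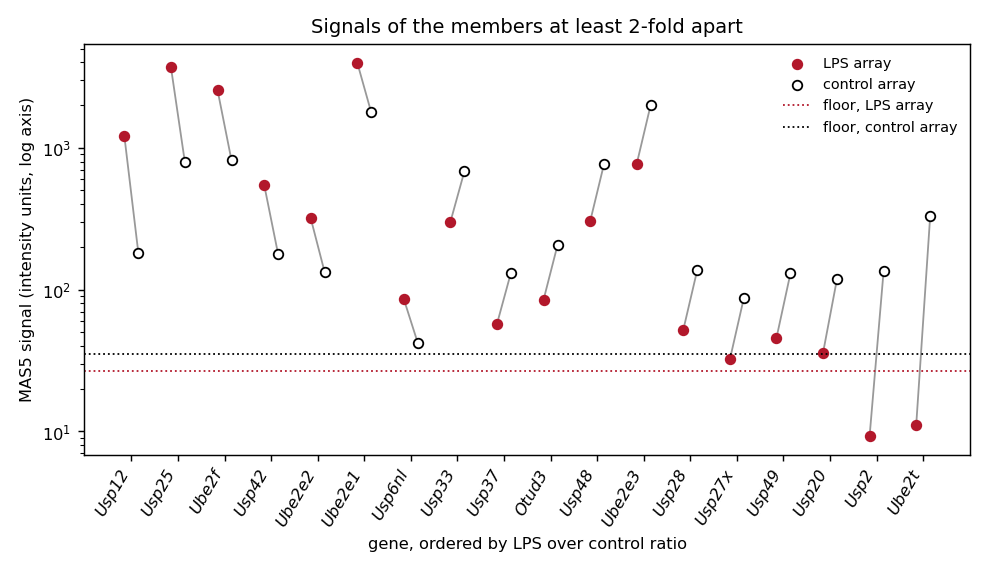
MAS5 signals (log axis) on the LPS array (filled) and the control array (open) for the 18 members at least 2-fold apart, ordered by ratio, with dotted lines at the floor of each array. The LPS signals of Usp2 (9.30) and Ube2t (11.1) lie under the LPS floor of 26.7, and those of the other 16 genes lie above it.

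The upstream sequences of Usp12 and Usp25, and of Usp28 and Ube2t from the lower side, are shown because these 4 genes include the ends of the range and the closest relative of Usp25. Each is the 250 bases before the RefSeq gene start in build GRCm38.p6, on the gene's strand. Capitals mark any match, on either strand, to 3 motifs: the core of an NF-kB type motif (GGNNNTTCC), the CCAAT box (CCAAT), common in promoters of cell cycle genes, and the E-box (CACGTG), bound by the clock and Myc families.
Usp12 (chr5:146794957-146795206, minus strand): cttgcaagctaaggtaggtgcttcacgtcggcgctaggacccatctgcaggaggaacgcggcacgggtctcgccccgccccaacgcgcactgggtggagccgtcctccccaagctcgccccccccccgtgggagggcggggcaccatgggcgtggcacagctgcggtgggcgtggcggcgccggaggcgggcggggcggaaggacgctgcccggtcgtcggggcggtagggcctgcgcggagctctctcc
Usp25 (chr16:77013819-77014068, plus strand): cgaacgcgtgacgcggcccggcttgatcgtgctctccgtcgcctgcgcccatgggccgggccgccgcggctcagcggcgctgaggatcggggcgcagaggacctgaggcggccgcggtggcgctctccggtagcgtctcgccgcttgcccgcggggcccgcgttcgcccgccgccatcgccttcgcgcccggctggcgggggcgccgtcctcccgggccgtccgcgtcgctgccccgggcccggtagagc
Usp28 (chr9:48985135-48985384, plus strand): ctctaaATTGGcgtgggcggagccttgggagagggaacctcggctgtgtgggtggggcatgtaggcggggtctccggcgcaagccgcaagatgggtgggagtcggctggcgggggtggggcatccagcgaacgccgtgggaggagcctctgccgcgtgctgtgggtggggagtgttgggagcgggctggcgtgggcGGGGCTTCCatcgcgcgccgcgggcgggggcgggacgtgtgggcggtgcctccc
Ube2t (chr1:134962315-134962564, plus strand): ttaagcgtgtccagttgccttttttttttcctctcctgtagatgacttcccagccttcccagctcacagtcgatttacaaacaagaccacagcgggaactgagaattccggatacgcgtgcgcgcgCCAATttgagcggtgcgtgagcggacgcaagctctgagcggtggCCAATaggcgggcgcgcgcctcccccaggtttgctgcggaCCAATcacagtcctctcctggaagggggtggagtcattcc

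The windows of Usp12 and Usp25, with a GC content of 74.8% and 80.0%, hold no match to any of these motifs. Ube2t (57.6% GC) holds 3 CCAAT matches, and Usp28 (73.2% GC) holds 1 NF-kB type match and 1 CCAAT match. RefSeq windows were found for 72 of the 91 genes and for 15 of the 18 past 2-fold. The NF-kB type motif was in 0 of 6 higher and 1 of 9 lower members with a window (Usp28), against 15.7% of all 32851 windows. CCAAT was in 2 of 6 higher members (Ube2e1 and Ube2f) and 3 of 9 lower ones (Ube2t, Usp28 and Usp49), against 33.8% of all windows. The E-box was in 1 of 6 higher members (Usp6nl) and 1 of 9 lower ones (Otud3), against 6.02%. Of 46 members within 2-fold with a window, 8 (17.4%) held the NF-kB type motif, 7 (15.2%) CCAAT and 6 (13%) the E-box. Here and below, members are counted per gene over all windows of the gene. The percentages of all windows are over the single windows of 27025 genes, so the units differ. These 3 motifs were picked after the ratios and the matches were known, out of 15 that were searched on both strands, and a match is only a match of letters in these windows.

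The NF-kB type motif was first searched in another, longer form that fixes other letters, and was replaced by the shorter core after its counts had been seen. The first form gave a different count on the lower side: it was in 0 of 6 higher members and in 3 of 9 lower ones (Usp20, Usp27x and Usp28), against 17.6% of all windows. The count for NF-kB type matches in the lower members therefore depends on the form chosen, 1 or 3 of 9, and nothing is read from it. Of the 11 other motifs, TTTGAA was in 1 higher member (Ube2f) and 0 lower ones, against 16% of all windows. A longer interferon response type motif was in 0 higher members and 1 lower one (Usp49), against 2.98%. The remaining 9 were in 0 of the 15 windows: an AP-1 type motif (TGANTCA), a CRE type motif (TGACGTCA), an E2F type motif (TTTGGCGC) and its variant (TTTCCCGC), a D-box type motif (TTATGTAA), a forkhead type motif (GTAAACA), a TFE type motif that holds the E-box (TCACGTGA), a longer NRF1 type motif, and a strict NF-kB form whose matches are also matches of both other NF-kB forms. Each of these 9 was in 6.75% of all windows or fewer.

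All 18 listed deubiquitinases with known substrates in NF-kB, Toll-like receptor or interferon signalling were measured. Of these, 2 passed 2-fold upwards (Usp12 and Usp25) and 2 downwards (Usp2 and Usp20), against 8.22% and 26.2% of all measured genes, and the median log2 ratio was 0.10. After centring 7 were higher and the same 2 lower, against 13.1% and 15.3%. The number higher depended on the scaling. Loess gave the same higher genes without Usp7, against 13.8% of all measured genes higher. With quantile normalization only Otud1, Usp10, Usp12 and Usp25 were higher, against 11.7%. With poly-A scaling only Usp10, Usp12 and Usp25 were, against 11%. The 5 that were higher after centring and not as deposited were all 1.5-fold to 2-fold higher as deposited: Usp10 1.85-fold, Usp15 1.63-fold, Otud1 1.62-fold, Otud5 1.59-fold and Usp7 1.57-fold. Otud5, also called DUBA, encodes an enzyme that removes ubiquitin from the interferon adaptor TRAF3, and all 4 of its probe sets were higher, from 0.39 to 0.67 on the log2 scale. For Usp7, which encodes a regulator of p53 and its ligase MDM2, 6 of 7 probe sets were higher, with the remaining one at -0.15. The 5 measured probe sets of Usp15 were split, with 3 higher and 2 lower.

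Otub1, whose product can also block E2 enzymes without cutting ubiquitin, read 339 on the LPS array and 324 on the control array. Otud7b, also called Cezanne and known for cutting Lys11-linked chains, had its brightest probe set 1.62-fold lower, a direction that turns under loess. All 4 of its probe sets were lower as deposited, the lowest at least 3.42-fold lower, with an LPS signal under the floor. Near level were Usp21 at 0.13, Otud4 at 0.22 and Usp31 at -0.12, of which Usp31 turns positive under each of the 4 scalings.

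Usp2, an output gene of the circadian clock, read 9.30 on the LPS array, under the floor, and 135 on the control array, at least 5.05-fold lower. Its other probe set read 1.09 on the LPS array and 85.8 on the control array, at least 3.22-fold lower, so both probe sets fell below the floor on the LPS array alone. Usp20 read 35.8 on the LPS array and 119 on the control array, 3.32-fold lower, and its 3 other probe sets were under the floor on both arrays. Usp33, a close relative of Usp20 with which it shares receptor substrates, was 2.27-fold lower at 301 on the LPS array and 682 on the control array.

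Of 11 listed genes of deubiquitinases of histones, DNA repair and the cell cycle, 10 were measured, 0 passed 2-fold upwards and 5 downwards around a median log2 ratio of -1.08, against 26.2% of all measured genes lower and an all-gene median of -0.42. After centring 2 of the 10 were lower (Usp27x and Usp49, median -0.66), near the 15.3% of all measured genes. Usp49, a histone H2B deubiquitinase, read 45.6 on the LPS array and 130 on the control array, 2.85-fold lower. Usp27x, a relative of the SAGA complex enzyme of Usp22, read 32.2 on the LPS array, near the floor, and 87.3 on the control array, 2.71-fold lower. Usp22 itself differed little, with 499 on the LPS array and 494 on the control array.

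Usp48 had 3 probe sets that agreed within 0.25 on the log2 scale, from -1.60 to -1.35, and its brightest read 303 on the LPS array and 773 on the control array, 2.55-fold lower. Usp28, which encodes a stabilizer of Myc and of DNA damage proteins, read 52.1 on the LPS array and 138 on the control array, 2.64-fold lower from a single probe set. Usp37, a cell cycle enzyme that acts on cyclin A, was 2.30-fold lower at 57.4 on the LPS array and 132 on the control array, with its other probe set at -0.59. The highest of the list was Usp36, a nucleolar enzyme, at 0.28 with its other measured probe set at -0.38.

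Of the 5 Ube2 genes listed under DNA repair and mitosis, all measured, 0 were higher and 1 lower (Ube2t) as deposited. The shares of all measured genes were 8.22% and 26.2%. After centring 1 was higher (Ube2s) and 1 lower, against 13.1% and 15.3%. Ube2t encodes the E2 that puts a single ubiquitin on FANCD2 in the Fanconi anaemia DNA repair pathway, and it had the lowest ratio of the members, reading 11.1 on the LPS array, under the floor, and 328 on the control array, at least 12.3-fold lower. Its second probe set, which barely reached the floor on the control array, read 2.70 on the LPS array and 36.2 on the control array. Usp1 encodes the enzyme that takes that ubiquitin off again. It read 717 on the LPS array and 1391 on the control array, 1.94-fold lower and so within 2-fold, with both dimmer probe sets at -1.14. After centring the brightest probe set of Usp1 was at -0.53. Wdr48, whose product UAF1 activates the proteins of Usp1, Usp12 and Usp46, is not a member; its brightest probe set was 4.31-fold lower, but its 3 measured probe sets ran from -2.11 to 0.09. Wdr20, the other partner of Usp12, was at -1.11, with 3 probe sets from -1.11 to 0.06.

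Of 7 measured proliferation genes, 6 were past 2-fold on the lower side, against 26.2% of all measured genes (5 after centring, against 15.3%), and their signals summed to 6618 on the LPS array and 15207 on the control array. The part of a smaller share of cycling cells in the lower Ube2t, Usp1, Usp28 and Usp37 signals was not tested, and fewer cells of a kind and less RNA per cell cannot be told apart in bulk RNA. Ube2s, which encodes the E2 that extends Lys11-linked chains for the anaphase-promoting complex in mitosis, went the other way by its single measured probe set, with 3161 on the LPS array and 1833 on the control array, 1.73-fold higher.

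Of the 2 listed E2 genes that serve ubiquitin-like proteins, 1 passed 2-fold upwards as deposited (Ube2f), against 8.22% of all measured genes. Both did after centring, against 13.1%. Ube2f encodes 1 of 2 E2s for NEDD8, the modifier that activates cullin ligases, and its brightest probe set read 2554 on the LPS array and 817 on the control array, 3.13-fold higher. Of its 6 probe sets, 5 were higher, from 0.92 to 1.64 on the log2 scale, and the sixth, at 61.9 on the LPS array and 68.6 on the control array, was at -0.15. The remaining NEDD8 genes measured differed less: Nedd8 itself was at -0.25 and the E1 subunit genes Uba3 and Nae1 at -0.17 and 0.18, of which Nedd8 and Uba3 turn positive after centring.

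Ube2z encodes an E2 that works with the E1 of Uba6 and serves both ubiquitin and FAT10. It lay just outside the threshold, with 1223 on the LPS array and 624 on the control array, 1.96-fold higher, and its second measured probe set was at 0.06. Uba6 was 1.67-fold higher, with 5 probe sets from -0.20 to 0.74. Among the 5 measured E1 genes, Uba7, which activates the interferon-induced modifier ISG15, was the highest at 3.03-fold, with all 3 probe sets between 1.60 and 1.87. Sae1, a subunit of the SUMO E1, was the lowest at -1.08, though its 4 probe sets ran up to 0.66.

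The E2 genes of broad use split within a group of close relatives. Ube2e1, Ube2e2 and Ube2e3 encode similar E2s with an extended amino terminus. Ube2e1 read 3984 on the LPS array and 1776 on the control array, 2.24-fold higher, with its dimmer probe set 1.83-fold higher. Ube2e2 read 319 on the LPS array and 133 on the control array, 2.40-fold higher. Ube2e3 read 770 on the LPS array and 2007 on the control array, 2.61-fold lower, so the log2 ratios of Ube2e1 and Ube2e3 lay 2.55 apart. Cross-hybridization between these relatives was not tested. Of 8 measured E2 genes of broad use, 2 passed 2-fold upwards and 1 downwards, against 8.22% and 26.2% of all measured genes. Their median was 0.20, and after centring 2 were higher and 0 lower, against 13.1% and 15.3%.

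The Ube2d genes, which encode the E2s most widely used with RING ligases, differed little. Ube2d3 read 6981 on the LPS array and 5414 on the control array, 1.29-fold higher, with 6 of 7 probe sets on that side. Ube2d2a was at 0.09, which turns negative under quantile normalization, and Ube2d1 at 0.21. The brightest probe set of Ube2h was 1.61-fold lower, at 460 on the LPS array and 743 on the control array. Its 3 other probe sets were lower still, at -1.84, -2.12 and -2.27, the middle value being a bound.

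E2 genes of Lys48-linked chains and of degradation from the endoplasmic reticulum all lay within 2-fold: of 6 measured, 0 were higher and 0 lower, as deposited and after centring. The shares of all measured genes were 8.22% and 26.2% as deposited, and 13.1% and 15.3% after centring. Ube2j2, whose product is anchored in the membrane of the endoplasmic reticulum, was the highest at 0.43 and Ube2g1 the lowest at -0.96. Between them were Ube2k at 0.33 and Ube2r2 at 0.12. The RAD6 homologues Ube2a and Ube2b, which act in DNA damage tolerance, stood apart from each other. Ube2a read 2206 on the LPS array and 2020 on the control array, at 0.13, though negative under quantile normalization, with its other probe set at -0.42. Ube2b read 884 on the LPS array and 1649 on the control array, 1.86-fold lower, and its 4 probe sets ran from -2.06 to -0.50. The large or atypical E2 genes Ube2q1, Ube2q2 and Ube2o were at -0.15, -0.79 and -0.33, of which Ube2q1 and Ube2o each turn positive under 3 of the 4 scalings.

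Of 6 genes of deubiquitinases of the proteasome and of free chains, 5 were measured and 0 passed 2-fold in either direction, as deposited and after centring. Their median, -0.38 as deposited and 0.04 after centring, is the value of Usp13. The floors set that value against the direction of the Usp13 signals, so nothing is read from its closeness to the median of all measured genes. The all-gene shares higher and lower were 8.22% and 26.2% as deposited, and 13.1% and 15.3% after centring. Usp14 and Uchl5 encode the proteases that trim chains at the proteasome, and they stood at -0.82 and -0.83, with all 4 probe sets of Usp14 and both of Uchl5 lower. Usp14 read 559 on the LPS array and 984 on the control array. Usp5, which recycles free ubiquitin chains, was at -0.06 and turns positive under each of the 4 scalings. Uchl1 was at 0.08, with 365 on the LPS array and 346 on the control array.

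Of the 7 genes of enzymes at membranes and organelles, all measured, 1 was higher (Usp6nl) and 1 lower (Usp33) as deposited. The shares of all measured genes were 8.22% and 26.2%. After centring 1 was higher and 0 lower, against 13.1% and 15.3%. Usp33 was then at -0.76, and it was within 2-fold under each of the 4 scalings. Usp6nl lay just inside the threshold at 2.04-fold, with 85.7 on the LPS array and 42.0 on the control array, and its 2 other probe sets were under the floor on both arrays. With a pseudocount of 16 it was at 0.81 and no longer past 2-fold. Usp30, which counters the removal of damaged mitochondria, was 1.78-fold lower at 87.2 on the LPS array and 155 on the control array, with its other probe set at -1.80. Usp19, an enzyme of the endoplasmic reticulum, was at -0.95 by its brightest probe set, while its 2 other measured probe sets were at -0.03 and 0.01, the first with its control signal raised to the floor. The endosomal enzyme gene Usp8 was at -0.44 and Usp9x at 0.26, where 4 of 7 probe sets were higher. Usp39, which encodes a splicing factor without protease activity, was at 0.59. Listed with it were Usp54 at -0.55, which turns positive under quantile normalization and loess, and Usp53 at -0.79. Of these 3, 0 passed 2-fold as deposited, and Usp39 did after centring.

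Of the 18 genes in no role list, 11 were measured. As deposited 1 was higher and 1 lower, against 8.22% and 26.2% of all measured genes. After centring 3 were higher and 0 lower, against 13.1% and 15.3%. Usp42 read 551 on the LPS array and 179 on the control array, 3.08-fold higher, from its single measured probe set. Otud3 read 85.0 on the LPS array and 206 on the control array, 2.43-fold lower, but its other probe set was at 0.08. Under each of the 4 scalings, from -0.99 to -0.51, and by the median of its probe sets (-0.60) it was within 2-fold. Otud6b, at -0.97, lay just outside the threshold on the lower side, Usp45 was at -0.81, and Usp40 was at 0.62 with all 4 probe sets higher.

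**Figure D4:**
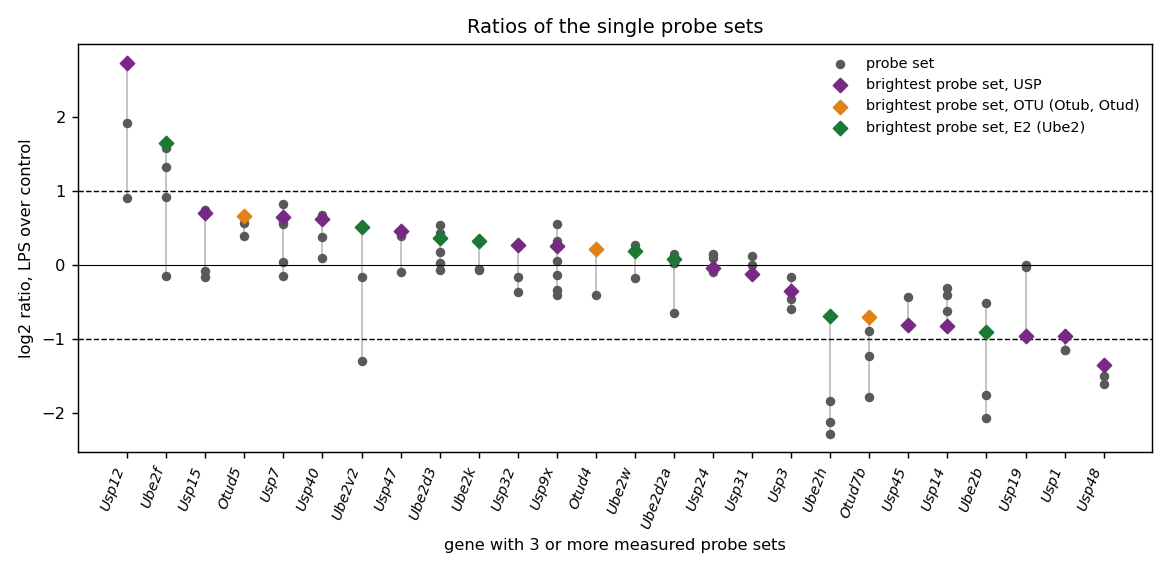
Log2 ratios (LPS over control) of the single measured probe sets (grey) for the 26 members with 3 or more, with the brightest probe set as a coloured diamond and dashed lines at 2-fold. All probe sets of Usp12, Usp48, Ube2h and Ube2b lie on 1 side of zero; those of Usp48 lie close together, and those of Usp12, Ube2h and Ube2b spread over more than 1.5 log2 units.

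Probe sets of 1 gene gave a gauge of the spread between probe sets only. They share the same 2 arrays, so this gauge holds no spread between replicates and does not replace them. In 48 members with 2 or more probe sets that reached both floors, the median SD of the log2 ratios was 0.30, against 0.28 over 4494 genes of the array. Of the 18 members past 2-fold, 9 had 2 or more measured probe sets, and in 7 of these all pointed 1 way; the exceptions were Ube2f and Otud3. The other 9 rest on 1 measured probe set each.

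Some close relatives had unlike ratios and others like ones. Of 22 listed pairs of related members, 9 differed by at least 2-fold in their ratios and 13 by less, and 3 stood at least 2-fold apart from control in opposite directions: Usp25 with Usp28, and Ube2e3 with each of Ube2e1 and Ube2e2. After centring 0 pairs did, because Usp28 and Ube2e3 were then within 2-fold at -0.98 and -0.96, while the differences within a pair do not change. Over the 4 scalings, both Ube2e3 pairs were past 2-fold in opposite directions under 3 (all but centring), and Usp25 with Usp28 under 1 (poly-A). The ratio of Usp25 exceeded that of Usp28 by 3.63 on the log2 scale, and that of Usp12 exceeded that of Usp46 by 2.86. Usp46, with 78.2 on the LPS array and 85.5 on the control array, was at -0.13, which turns positive under each of the 4 scalings. Other pairs lay close, such as Usp7 and Usp47 at 0.65 and 0.45 and Usp54 and Usp53 0.25 apart. The pairs were listed after the ratios were known, do not cover all relatives among the members, and are a description.

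Of 15 measured deubiquitinase genes outside the USP, OTU-named and UCH genes, 2 passed 2-fold upwards and 2 downwards around a median of -0.38, against 8.22% and 26.2% of all measured genes. After centring 2 were higher and 1 lower, against 13.1% and 15.3%. Tnfaip3, the gene of the OTU protein A20 that restrains NF-kB, was 30.5-fold higher at 7078 on the LPS array and 232 on the control array, a larger ratio than that of any member. Vcpip1 was 2.20-fold higher, Stambpl1 was at -1.14, and Atxn3 was the lowest at -1.94. Cyld, which encodes an enzyme that removes Lys63-linked and linear chains, was at 0.43, though its 3 measured probe sets ran down to -1.21.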

How the data were processed

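The authors deposited a linear intensity for each probe set of each array, computed with MAS5 per the submitters' processing notes. The version and any scaling are not stated there, no detection calls were used, and 0 columns were left unused. Arrays were grouped by their titles. Probe sets were named through the platform annotation: 34945 of 45101 had 1 gene, 932 several and 9160 none, beside 64 array controls. Of the 91 members, 90 had an identifier in RefSeq genes of GRCm38.p6, with 0 symbols changed. Genes without a probe set of their own were not analysed here. Each gene was read by its brightest probe set (mean of both log2 signals), as in an earlier account of these data, and signals under the array's 50th percentile were set to it. There being 1 array per condition, no test was run, and members past 2-fold were set against all measured genes.

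Members and lists were chosen with earlier results of these data known. The text names all members past 2-fold and the highest and lowest member of each role list. The planned naming of the brightest member of each family was dropped, because signals of different probe sets are not comparable. Naming the highest and lowest of each list of other genes was also planned and was not done for all lists. Left out above were, for example, Sumo3 at -1.42 and Atxn7l3 at 0.45. Members near the threshold or with divergent probe sets were added after their values were seen. Alternatives were a floor at percentile 35 or 65, a pseudocount of 16, quantile normalization, median centring, loess (span 0.4), the median of probe sets, plain probe sets, genes on both arrays, and 3-fold and 1.5-fold thresholds. Scaling to 24 poly-A control probe sets (median log2 ratio -0.29) was chosen after seeing the data. Upstream windows were searched for 15 motifs; the 3 shown were picked, and the form of 1 of them was changed, after the matches were known. Steps were also run on simulated arrays with a constant shift between the arrays. In these data the shift varied with brightness, so that run does not check the counts under each scaling. Python 3.11.15, pandas 2.3.3 and statsmodels 0.14.6 were used.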

Additional observations from a re-analysis of the deposited data

How the results depend on the processing

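The members' counts and median depended on the scaling between arrays and on the threshold. As deposited, 7 members passed 2-fold upwards and 11 downwards, and the median log2 ratio was -0.10. The numbers higher and lower were 17 and 5 after median centring, 12 and 5 with quantile normalization, and 16 and 4 with loess, and the medians were 0.33, 0.21 and 0.36. As shares these were 21.8% and 6.41%, 15.4% and 6.41%, and 20.5% and 5.13%. The shares of all measured genes were 13.1% and 15.3%, 11.7% and 15.6%, and 13.8% and 12.8%. Poly-A scaling gave 10 higher and 8 lower and a median of 0.19. These were 12.8% and 10.3% of the members, against 11% and 18.2% of all measured genes. At 3-fold 4 were higher and 3 lower, and at 1.5-fold 17 and 25. The 3-fold shares were 5.13% and 3.85%, against 5.22% and 12.2% of all measured genes. At 1.5-fold they were 21.8% and 32.1%, against 13% and 42%. Floors at the 35th and 65th percentile, the pseudocount, the median of probe sets, plain probe sets and the restriction to both arrays kept both counts within 1.5 times and the median within 0.28. With the median of probe sets, Otud7b, Ube2b, Ube2h, Usp1 and Usp30 were counted as lower and Otud3 and Usp37 were not. With the floor at the 65th percentile, Usp20 (-0.99) and Usp27x, which was then not measured, were not counted as lower. Of 176 recomputed ratios of the 18 members past 2-fold, 2 changed sign: Ube2f was at -0.15 with plain probe sets, where its 4 brightest are not used, and Usp6nl was at -0.085 with the floor at the 65th percentile. That value is set by the floor and is no change of direction: the control floor of 90.9 then lies above both signals, 85.7 on the LPS array and 42.0 on the control array. Across all members, 19 turned sign under at least 1 of the 4 scalings, all of them within 2-fold. Dim signals limit Usp2, Ube2t, Usp6nl, Usp20 and Usp27x, which lay near or under a floor on at least 1 array.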

Other observations

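Probe sets that the annotation gives to several genes belong in no comparison above. The probe set shared by Uchl4 and Uchl3 read 195 on the LPS array and 482 on the control array, a log2 ratio of -1.31, while the probe set of Uchl4 alone was under the floor on both arrays. The 4 probe sets that list Ube2l3, an E2 of HECT and RBR ligases, together with 4 predicted genes ran from -0.56 to 0.08. Those shared by Usp49 with Med20 and by Usp50 with Polr2l were at 0.41 and -0.17, and the 2 shared by Usp17ld and Usp17lc were under the floor on both arrays.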
